A study of Homo sapiens with 80 samples.

Results

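RNA abundance was followed across 1 step of cardiomyocyte differentiation, from day 2 or 3 to day 4 or 5, in 6 differentiations of human pluripotent stem cells. The members are 12 of the 80 libraries of the study, chosen as the day 2 or 3 and the day 4 or 5 libraries of its RNA-only experiment, which holds 24 libraries in all. Each of the 6 differentiations gave 1 library at each of the 2 steps, and the later library was compared with the earlier library of the same differentiation. The genes described are those that moved the same way in all 6. A differentiation was called high or low purity from cardiac troponin T staining at its end on day 16, and the study, per its title, set out to predict that outcome from early samples.

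The lines were H9, an embryonic stem cell line, and IMR90-4 and WTC11, which are induced pluripotent stem cell lines. H9 was used at passage 55 for the low and passage 58 for the high purity differentiation, IMR90-4 at passage 55 for high and 75 for low, and WTC11 at passage 69 for low and 81 for high. All 6 received CHIR99021 on day 0 at a concentration chosen for each line, in medium with B27 lacking insulin. WTC11 received IWP2 on day 2 and was taken off it on day 4, whereas H9 and IMR90-4 received IWP2 with conditioned medium on day 3 and were taken off it on day 5. The step compared is therefore the period under IWP2 in every line, sampled on days 2 and 4 in WTC11 and on days 3 and 5 in the other lines, so that line and schedule cannot be told apart. There were no replicate wells, so the replicate here is the differentiation, and each line contributes a pair of them.

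CHIR99021 inhibits the kinase GSK3 and so stabilises beta-catenin, the effector of canonical WNT signalling, which drives pluripotent cells through a state resembling the primitive streak of the embryo into mesoderm. IWP2 inhibits PORCN, the enzyme that lipid-modifies WNT ligands before secretion, and withdrawal of the WNT signal at this point is what lets anterior mesoderm take on a cardiac fate. The heart progenitors that follow switch on transcription factors of the GATA, HAND and T-box families before the contractile proteins.

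Total counts were 21180452 to 40357968 reads per library. The libraries were made from total RNA, and the short noncoding RNAs RN7SK and RMRP took 18.8% to 29.5% and 11.7% to 20.1% of the TPM, a length-corrected share of transcripts, of these 12 libraries. Levels below are CPM, reads scaled to library size with TMM factors, unless TPM is named, and a change is the later minus the earlier step on the log2 scale. In bulk RNA, fewer cells of a type and less RNA per cell cannot be told apart.

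One differentiation stood apart. The summed level of 12 primitive streak genes on day 3 was 62.0 CPM in the H9 low purity library and 355 to 1936 CPM in the 5 others at their day 2 or 3. That library was higher in other lists. Its epicardial list summed to 202 CPM against 4.39 to 19.8 CPM in the 5 others, and its HOX list to 530 CPM against 5.44 to 140 CPM. The sarcomere list summed to 1137 CPM against 326 to 611 CPM. On day 0, before differentiation, the sarcomere list had already summed to 440 to 1006 CPM over the 6 differentiations, and the epicardial list to 33.2 to 48.4 CPM. The changes of H9 low correlated with those of the 5 other differentiations at Spearman's rho of 0.122 to 0.232 across 19930 genes, while the 10 correlations among the others ran from 0.226 to 0.692. These correlations are a description across genes, which are not independent. The cause was not tested, and neither was whether the stated day and label of the H9 low day 3 library hold. Where leaving out H9 low changed the counts of a list, both are given, and values of some genes are given with and without it.

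Differentiations of 1 line resembled each other in WTC11 and in IMR90-4, but little in H9. The changes of WTC11 high and low correlated at a rho of 0.692 and those of IMR90-4 high and low at 0.661, against at most 0.503 between lines, while H9 high and low reached 0.169. The test has no term for the line and counts the 6 pairs as independent, so its standard errors and p-values may be too small.

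Of 19930 genes tested with edgeR's quasi-likelihood test, paired by differentiation, 934 (4.69%) were called, which means an adjusted p under 0.05 (Benjamini-Hochberg) and a log2 fold change of 1 or more in either direction. Of these, 501 (2.51%) were higher at day 4 or 5 and 433 (2.17%) were lower. The median log2 fold change of all genes was 0.01. Among the called genes, 165 (0.828%) changed by at least 1 in the same direction in each of the 6 pairs: 82 (0.411%) rose and 83 (0.416%) fell. In 19 of the 82 (23.2%) all 6 later libraries lay above all 6 earlier ones, against 0.833% of all genes tested. In 14 of the 83 (16.9%) they lay below, against 0.798% of all genes tested. Genes with either pattern are said to have groups apart. The same sign in all 6 pairs alone, of any size, was found upward in 10.4% and downward in 10.9% of all genes. Without the pairing 34 genes were called, and leaving out 1 differentiation at a time gave 166 to 1481. Without H9 low, 901 (4.42%) of 20383 genes were called higher and 580 (2.85%) lower, and 515 genes changed by at least 1 in all 5 remaining pairs. A further 173 genes rose past 1 in exactly 5 of the 6 pairs, and H9 low was the exception for 112 of them. It was also the exception for 49 of the 142 genes that fell in 5 of 6.

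Many calls of single genes were lost with 1 differentiation left out. Of the 30 protein-coding genes with the largest changes, 16 kept their call in every fit with 1 differentiation left out in which they were tested: 7 of 15 that rose and 9 of 15 that fell. TGFB2, TBX2, TECRL, COL3A1, TNNI1, GATA2 and APOB were those that rose, and MIXL1, GSC, CMKLR1, NTS, STMN2, TNFRSF11B and GAL were among those that fell. Of all 79 named genes called over the 6 pairs, 24 kept their call in every such fit.

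The 83 genes that fell and the 82 that rose had different histories over the 4 sampled steps. By the mean over the 6 differentiations, 54 of the 83 (65.1%) were at their highest at day 2 or 3, against 17.2% of all genes tested, and the 29 others were highest at day 0. Of the 82 that rose, 52 (63.4%) were highest at day 6 or 7, against 28.9% of all genes, and 29 were highest at day 4 or 5. The levels at day 2 or 3 and day 4 or 5 had chosen these genes, so these shares are a description.

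**Figure D1:**
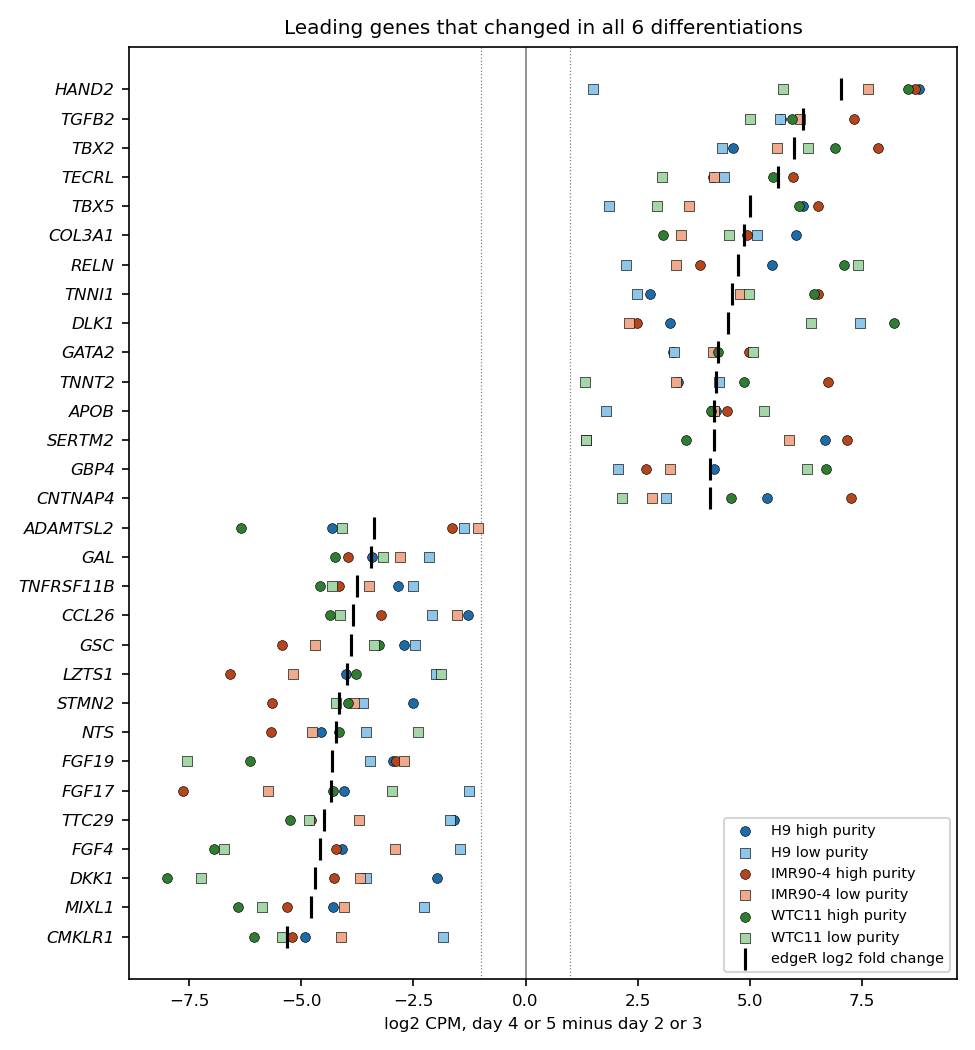
Change of each of the 6 differentiations for the 15 genes with the largest rise and the 15 with the largest fall among protein-coding genes that changed in all 6. The horizontal axis is the log2 CPM of day 4 or 5 minus day 2 or 3, circles are high and squares low purity differentiations, vertical bars are the edgeR estimates, and dotted lines mark a change of 1. All 6 symbols of a gene lie on its side of the dotted line, and the H9 low square of HAND2 at 1.50 lies far from its 5 others at 5.74 to 8.79.

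Of 12 tested genes of the primitive streak, 8 fell. MIXL1, a homeobox factor of the streak and nascent mesoderm, stood at 134, 216 and 659 CPM in the high purity libraries of H9, IMR90-4 and WTC11 at day 2 or 3, and at 9.25, 138 and 469 CPM in the low purity ones. By day 4 or 5 it was at 6.76, 5.38 and 7.63 CPM in the high and at 1.86, 8.14 and 7.89 CPM in the low purity libraries. All 6 earlier libraries lay above all 6 later ones, H9 low included, although its starting level was the lowest by a wide margin. The log2 fold change of MIXL1 was -4.80 ± 0.57 (SE, n = 6 pairs; adjusted p = 0.0092, edgeR). EOMES, the T-box factor that acts upstream of the cardiac mesoderm program, had 7.39, 181 and 386 CPM as its lowest, median and highest level at day 2 or 3, and 1.97, 49.4 and 70.2 CPM at day 4 or 5. It fell in every pair, by 1.19 in WTC11 low up to 3.98 in IMR90-4 high, while its ranges overlapped because of H9 low.

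GSC, a factor of the organizer and anterior streak, fell from a median of 18.8 to 0.654 CPM (log2 fold change -3.89 ± 0.41 SE). SP8, a zinc finger transcription factor, fell from a median of 35.7 to 3.09 CPM (-3.28 ± 0.31 SE). Both were lower at the later step in each of the 6 pairs. TBXT, also called brachyury and the classical marker of the streak, was called lower (-3.80 ± 0.68 SE; adjusted p = 0.022, edgeR) but moved by only -0.59 in H9 low. TBXT levels at day 2 or 3 were 420 and 209 CPM in WTC11 and 1.39 to 12.4 CPM in the 4 others. In all, 8 of 12 tested primitive streak genes were called lower and 0 higher, with a median log2 fold change of -3.43 beside 0.01 over all genes; the same numbers were called without H9 low. The list was chosen with results of these data known.

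**Figure D2:**
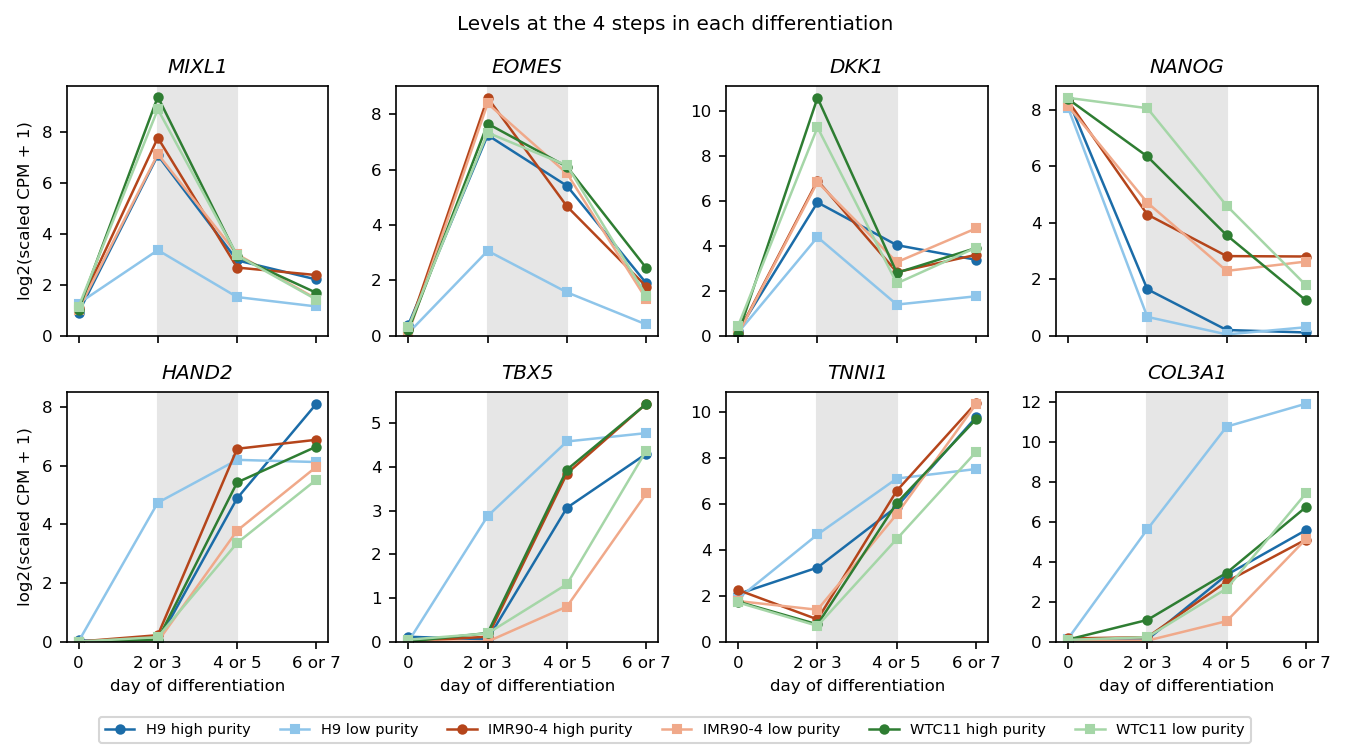
Levels of 8 genes at the 4 sampled steps, as log2 of scaled CPM + 1, with 1 line per differentiation and the compared step shaded. MIXL1, EOMES and DKK1 peaked at day 2 or 3 in all 6 differentiations and NANOG declined from day 0, whereas HAND2, TBX5 and COL3A1 left the floor within the shaded step in 5 differentiations and before it in H9 low.

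Of 19 tested targets and feedback inhibitors of WNT signalling, 5 fell. DKK1, a secreted inhibitor of the WNT co-receptor LRP6 and itself a WNT target, was at 60.4, 120 and 1551 CPM in the high purity libraries of H9, IMR90-4 and WTC11 at the earlier step, and at 20.01, 114 and 622 CPM in the low purity ones. At day 4 or 5 it lay between 1.62 CPM in H9 low and 15.4 CPM in H9 high. The groups did not overlap, and the log2 fold change was -4.70 ± 0.91 (SE; adjusted p = 0.025, edgeR), a call kept in 2 of the 6 fits that left out 1 differentiation. SP5, a transcription factor that beta-catenin induces directly, fell from a median of 97.6 to 15.2 CPM (-2.996 ± 0.56 SE). NKD1, an inhibitor of Dishevelled, fell from 74.3 to 22.2 CPM in the median (-2.26 ± 0.46 SE), with no overlap of the groups. AXIN2, a scaffold of the complex that destroys beta-catenin and a common readout of the pathway, was at 48.9, 79.0 and 264 CPM (lowest, median and highest) before and at 18.6, 27.9 and 40.3 CPM after. Its groups did not overlap, yet its change in H9 low was -0.46, so AXIN2 was called lower (-1.70 ± 0.34 SE; adjusted p = 0.026, edgeR) without passing 1 in all 6 pairs.

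The 5 were AXIN2, SP5, NKD1, DKK1 and CCND1. Of the 19, 1 was called higher and 13 were not called, with a median of -0.61. With H9 low left out, 2 were called higher and 4 lower. The gene called higher over the 6 pairs was BAMBI, a pseudoreceptor that dampens BMP and TGF-beta signals (1.53 ± 0.37 SE). Among the ligands, 4 of 12 tested WNT ligand and secretion genes were called lower, 0 higher, with a median of -0.48. WNT8A went from 14.5, 50.3 and 124 CPM to 1.62, 6.55 and 11.1 CPM (lowest, median, highest), with the 2 steps apart. WNT3A, a canonical ligand of the streak, fell from a median of 13.7 to 3.86 CPM (-2.31 ± 0.33 SE). WNT5A, which mostly signals without beta-catenin, was called lower by a smaller amount (-1.36 ± 0.27 SE) but did not fall in H9 low, where its change was 0.05. RSPO3, a secreted protein that amplifies WNT signalling through LGR receptors, fell in all 6, from a median of 18.4 to 1.63 CPM (-3.09 ± 0.74 SE). LGR4, one of those receptors, was called higher (1.73 ± 0.40 SE), at 0.12 in H9 low and 1.01 to 3.46 in the others.

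The promoters of SP5 and MIXL1, which fell, both hold a match to 1 form of the site of TCF and LEF factors, the DNA-binding partners of beta-catenin. They are shown as the 250 bases before the gene's start on the gene's own strand, from RefSeq on GRCh38.p14, with the match in capitals. SP5 lies at chr2:170715087-170715336 and MIXL1 at chr1:226223414-226223663, both on the plus strand.
SP5: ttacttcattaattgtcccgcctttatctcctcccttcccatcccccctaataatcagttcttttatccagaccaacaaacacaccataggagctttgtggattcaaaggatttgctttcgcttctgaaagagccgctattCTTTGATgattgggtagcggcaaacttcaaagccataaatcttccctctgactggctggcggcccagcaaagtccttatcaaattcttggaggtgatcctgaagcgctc
MIXL1: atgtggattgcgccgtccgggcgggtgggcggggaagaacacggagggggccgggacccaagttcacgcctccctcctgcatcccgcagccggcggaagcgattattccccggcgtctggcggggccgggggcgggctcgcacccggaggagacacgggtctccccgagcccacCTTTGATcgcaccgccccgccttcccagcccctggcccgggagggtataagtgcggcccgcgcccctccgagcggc
The first base of the match lies 109 bases before the start of SP5 and 76 bases before that of MIXL1. The letters searched were CTTTGAT or, on the other strand, ATCAAAG, and 5 of 49 promoters of genes that fell in all 6 held them (10.2%), as did 1 of 54 promoters of genes that rose (1.85%). Of all 27305 RefSeq promoters, 2.28% held them, and of the 13469 promoters of genes tested 1.44%. The same window of DKK1 and WNT8A holds neither CTTTGAT nor ATCAAAG. Other forms of the TCF and LEF site were not searched or marked in any window. A match describes letters in this window and says nothing of binding.

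Of 20 tested FGF ligands and feedback genes, 6 fell, 3 of them ligands. FGF4 stood at 1.65, 28.4 and 190 CPM before (lowest, median, highest) and at 0.552, 1.03 and 4.44 CPM after (-4.58 ± 0.79 SE). FGF17 fell from a median of 190 to 4.08 CPM (-4.35 ± 0.81 SE), and H9 low, at 3.17 CPM on day 3, was again lowest before the step. FGF19 differed in its course: it was already at 14.3 to 24.5 CPM on day 0, at 2.96 to 49.5 CPM at day 2 or 3, and at 1.06 CPM or less at day 4 or 5. None of the 20 was called higher over the 6 pairs, and the median was -0.41. With H9 low left out, 1 was called higher and 6 lower. The other 3 that fell over the 6 pairs were ETV4, an effector of FGF signalling (-2.07 ± 0.32 SE), and the feedback inhibitors SPRY4 and IL17RD.

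The NODAL ligand itself was not called. NODAL had a log2 fold change of -2.10 ± 0.62 (SE; adjusted p = 0.066, edgeR), and its secreted antagonist CER1 one of -3.65 ± 1.15 (SE; adjusted p = 0.078, edgeR). Of 9 tested genes of that pathway only LEFTY1, another antagonist, was called lower, and its change in H9 low was 0.14.

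Of 20 tested BMP pathway genes, 10 were called higher and 1 lower, with a median of 1.63; without H9 low, 13 were called higher and 1 lower. SMAD9, a receptor-regulated effector of BMP signals, went from 1.66, 7.56 and 15.02 CPM to 22.3, 64.5 and 89.3 CPM (3.04 ± 0.36 SE; adjusted p = 0.0092, edgeR). All 6 later libraries were above all 6 earlier ones. The inhibitory SMAD6, which BMP signals induce, rose from a median of 172 to 463 CPM (2.38 ± 0.50 SE), also without overlap, although by only 0.52 in H9 low. ID1, a direct BMP target that blocks basic helix-loop-helix factors, rose from a median of 41.9 to 252 CPM (2.04 ± 0.39 SE), with changes of 0.32 in IMR90-4 high and 3.22 in WTC11 low at the extremes. Secreted inhibitors were among the genes that rose: CHRD passed 1 in all 6 pairs (1.93 ± 0.37 SE), and NOG was called higher. The gene called lower was FST, which binds activins and BMPs (-1.99 ± 0.47 SE). BMP4 itself was not called, with 41.2 to 205 CPM in H9 and IMR90-4 on day 3 and 9.85 and 27.2 CPM in WTC11 on day 2.

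Of 24 tested transcription factors of the heart progenitors, 11 rose. HAND2, a basic helix-loop-helix factor needed for the second heart field and right ventricle, was at 0, 0.164 and 0.0486 CPM in the high purity libraries of H9, IMR90-4 and WTC11 at day 2 or 3. In the low purity libraries of IMR90-4 and WTC11 it was at 0 and 0.111 CPM, but in H9 low at 25.7 CPM. At day 4 or 5 HAND2 reached 28.6, 94.6 and 42.1 CPM in the high and 72.5, 12.8 and 9.31 CPM in the low purity libraries of H9, IMR90-4 and WTC11. Apart from H9 low on day 3, every later library was far above every earlier one. The log2 fold change was 7.04 ± 1.29 (SE; adjusted p = 0.022, edgeR) and, without H9 low, 8.90 (adjusted p = 0.0012, edgeR). The call of HAND2 was lost when any of the 5 other differentiations was left out (adjusted p = 0.053 to 0.074, edgeR) and without both WTC11 differentiations (adjusted p = 0.106, edgeR). In TPM the median of HAND2 went from 0.0424 to 19.5.

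TBX2, a repressor that marks the atrioventricular canal and outflow tract, went from 0.166, 0.381 and 3.97 CPM (lowest, median, highest) to 16.1, 29.6 and 83.2 CPM (5.99 ± 0.55 SE; adjusted p = 0.0056, edgeR). Its groups were apart with H9 low included. TBX5, a factor of the first heart field and left ventricle, reached 7.37, 13.4 and 14.3 CPM in the high purity libraries of H9, IMR90-4 and WTC11 and 22.96, 0.745 and 1.49 CPM in the low purity ones. At day 2 or 3 it had been at 0.146 CPM or less outside H9 low, which held 6.33 CPM. The rise of TBX5 was 5.02 ± 0.88 (SE; adjusted p = 0.022, edgeR), a call kept in 2 of the 6 fits with 1 differentiation left out. GATA5, a zinc finger factor of early heart and endoderm, rose from a median of 1.57 to 19.2 CPM (4.09 ± 0.68 SE), and ZFPM2, a cofactor of GATA4, from 0.232 to 3.72 CPM (3.13 ± 0.35 SE). NR2F1, a nuclear receptor of the atrial program, was at 0.0553 to 0.164 CPM before the step outside H9 low and at 0.602 to 10.3 CPM after it; in H9 low it was at 48.2 and 202 CPM.

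Of the 11 heart progenitor factors called higher, 6 passed 1 in all 6 pairs, and 0 of the 24 were called lower, with a median of 2.34 beside 0.01 over all genes. Without H9 low 12 were called higher and 0 lower. ISL1, the marker of the second heart field, was higher at the later step in 5 differentiations, by 4.80 to 7.51, from at most 2.43 CPM to between 16.8 and 88.4 CPM. In H9 low it went from 6.80 to 1.31 CPM, a change of -2.31. ISL1 was called higher over all 6 pairs (5.22 ± 1.35 SE; adjusted p = 0.048, edgeR) and, without H9 low, by 5.99 (adjusted p = 0.0029, edgeR). The call of ISL1 was lost when any of the 5 other differentiations was left out (adjusted p = 0.104 to 0.135, edgeR) and without both WTC11 differentiations (adjusted p = 0.196, edgeR). TBX20, a T-box factor of the whole early heart, was called higher (3.77 ± 0.83 SE) and was at 50.6 CPM or more in every later library. NKX2-5, the homeobox factor of committed heart cells, was not called (4.33 ± 1.16 SE; adjusted p = 0.052, edgeR): its change was -0.09 in H9 low and 2.18 to 7.07 in the others. GATA4 was already at 14.0 to 49.7 CPM at day 2 or 3 and at 35.9 to 166 CPM at day 4 or 5, and its log2 fold change of 0.98 ± 0.24 (SE; adjusted p = 0.045, edgeR) was just under the threshold of 1.

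The called markers of the preceding cardiac mesoderm had no common direction. APLNR, the apelin receptor of migrating mesoderm, was called lower (-2.93 ± 0.61 SE), by as much as 5.16 in H9 low and by 0.16 in WTC11 low. PDGFRA, a receptor of cardiac and paraxial mesoderm, was called higher (2.04 ± 0.49 SE): it was at 26.8 to 700 CPM before the step outside H9 low and at 288 CPM or more in every later library. H9 low held 1584 CPM of PDGFRA on day 3, the highest of the earlier libraries. Of 10 tested genes of the list, 2 were called higher and 2 lower, and the remaining 6 were not called. The called genes include LGR4 and DKK1, described above with WNT signalling. The median of the list was -1.39. With H9 low left out, 2 were called higher and 3 lower.

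Of 21 tested sarcomere and cardiomyocyte genes, 4 were called higher and 0 lower, with a median of 1.35; without H9 low, 7 were called higher. TNNI1, the slow skeletal troponin I of the fetal heart, was at 0.609 to 24.4 CPM before and 21.2 to 137 CPM after (4.62 ± 0.68 SE; adjusted p = 0.015, edgeR). TNNT2, cardiac troponin T and the protein that defined purity on day 16, was at 0.258, 0 and 0.0486 CPM in the high purity libraries of H9, IMR90-4 and WTC11 at day 2 or 3. In the low purity libraries of the same lines it was at 1.86, 0.138 and 0.277 CPM. At day 4 or 5 TNNT2 was at 3.36, 6.91 and 3.28 CPM in the high and at 38.1, 2.01 and 0.794 CPM in the low purity libraries. It rose in every pair (4.25 ± 0.75 SE; adjusted p = 0.021, edgeR), yet at day 6 or 7 it stood at 55.4 to 497 CPM, so the levels of this step were early ones. Among the day 4 or 5 libraries, H9 low held the most TNNT2. TPM1, an alpha-tropomyosin expressed in most cells, rose from a median of 155 to 452 CPM with no overlap of the groups (1.80 ± 0.17 SE). MYL7, the atrial regulatory light chain, was called higher (2.33 ± 0.41 SE) but moved by 0.42 in H9 low, which held 156 CPM on day 3 against 2.57 to 12.8 CPM in the others. TECRL, a reductase family protein of cardiac muscle, was at 0 to 4.10 CPM before and 0.695 to 88.3 CPM after, and its extremes were again set by H9 low.

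The promoters of HAND2 and TNNT2, which rose, hold a match to 1 form of the core site of GATA factors, whose members GATA5 and GATA2 were among the genes that rose. They are shown in the same way, at chr4:173530230-173530479 for HAND2 and chr1:201377681-201377930 for TNNT2, both on the minus strand.
HAND2: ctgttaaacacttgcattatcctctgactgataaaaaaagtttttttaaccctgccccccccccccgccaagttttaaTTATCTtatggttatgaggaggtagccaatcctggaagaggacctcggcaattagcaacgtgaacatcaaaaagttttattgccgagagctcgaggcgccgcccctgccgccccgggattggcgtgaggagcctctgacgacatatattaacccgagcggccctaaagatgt
TNNT2: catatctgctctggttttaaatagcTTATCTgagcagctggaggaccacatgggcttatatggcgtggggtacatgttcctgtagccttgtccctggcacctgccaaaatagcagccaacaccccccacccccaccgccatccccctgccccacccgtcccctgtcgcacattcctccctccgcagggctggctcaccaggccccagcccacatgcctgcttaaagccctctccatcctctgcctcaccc
The first base of the match lies 172 bases before the start of HAND2 and 225 bases before that of TNNT2. AGATAA or TTATCT stood in 8 of 54 promoters of genes that rose in all 6 (14.8%) and in 3 of 49 of genes that fell (6.12%), SP5 among the latter. Over all promoters the share was 9.37%, and over those of genes tested 5.82%. The same window of TBX5 holds neither AGATAA nor TTATCT. Other forms of the GATA site were not searched or marked in any window. The T-box letters AGGTGTGA or TCACACCT stood in 1 of the 54 and 0 of the 49, against 0.787% of all promoters. The 3 motifs share no letters that would make one match count as another. Here too a match says nothing of binding, and a link between the GATA factors and these genes was not tested.

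Other genes that rose included secreted factors and receptors. TGFB2, a secreted TGF-beta that acts in the cushions of the heart, went from 0.194, 0.426 and 5.53 CPM to 8.31, 30.0 and 283 CPM. Its groups were apart, every pair rose by at least 5.02, and it had the smallest adjusted p of the test (6.20 ± 0.28 SE; adjusted p = 0.00053, edgeR). COL3A1, a fibrillar collagen, was at 0.0344 to 1.12 CPM before and 1.03 to 9.84 CPM after in 5 differentiations, and at 48.0 and 1721 CPM in H9 low. LUM, a proteoglycan of collagen fibrils, was at 0 CPM in 4 of the earlier libraries and at 104 CPM in H9 low. Of 23 tested matrix genes, 4 were called higher and 1 lower, with a median of 0.46. With H9 low left out, 5 were called higher and 1 lower. COL1A1 (2.40 ± 0.39 SE) was the other fibrillar collagen that rose in all 6. RELN, a secreted glycoprotein, rose from a median of 9.06 to 154 CPM (4.75 ± 0.79 SE). ERBB4, a receptor of neuregulins, rose from a median of 3.66 to 50.7 CPM with no overlap (3.78 ± 0.51 SE). IGF2, the fetal growth factor, and IL6ST, the shared receptor subunit of the interleukin 6 family, rose in all 6 by 2.54 ± 0.59 and 1.50 ± 0.12 (SE). ERBB4, IGF2 and IL6ST were named after their values were seen.

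Among the leading genes that fell were secreted peptides and receptors with no assigned list. CMKLR1, the chemerin receptor, had the largest fall, from a median of 17.8 to 0.381 CPM (-5.32 ± 0.31 SE, adjusted p = 0.002, edgeR). H9 low was at 0.169 CPM before the step, so the fall of CMKLR1 in that pair rests on few reads. NTS, the precursor of neurotensin, fell from 14.5, 117 and 411 CPM to 1.17, 7.87 and 9.94 CPM with no overlap. GAL, the precursor of galanin, was at 17.9 to 57.4 CPM on day 0 and fell from a median of 27.3 to 2.92 CPM across the step (-3.44 ± 0.26 SE). STMN2, a tubulin-binding protein best known from neurons, was at 177 and 349 CPM in the IMR90-4 libraries on day 3 and at 1.60 to 24.4 CPM in the others, and fell in all 6. TNFRSF11B, a decoy receptor also called osteoprotegerin, fell from a median of 43.5 to 2.63 CPM (-3.76 ± 0.30 SE). CD44, the hyaluronan receptor, fell in all 6 without overlap (-2.48 ± 0.41 SE); it was named after its values were seen.

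Of 15 tested pluripotency genes, 3 fell. NANOG was at 271 to 345 CPM on day 0, at 0.591, 21.98 and 267 CPM (lowest, median, highest) at day 2 or 3 and at 0.0345, 5.00 and 23.4 CPM at day 4 or 5 (-2.83 ± 0.29 SE; adjusted p = 0.0071, edgeR). The highest level at both steps was that of WTC11 low and the lowest that of H9 low. Reads of NANOG and of POU5F1 may be shared with their processed copies. POU5F1, which encodes OCT4, was listed at 352 and 330 CPM on day 0 in H9 and at 1.59 to 1.87 CPM in the 4 other differentiations, so its change (-2.55 ± 0.46 SE) rests on few reads outside H9. None of the 15 was called higher, and the median was -0.79. With H9 low left out, 0 were called higher and 4 lower.

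Signals that pattern mesoderm changed in part. In the Notch pathway DLL3, an inhibitory ligand of the presomitic mesoderm, fell in all 6 from a median of 254 to 23.5 CPM (-2.996 ± 0.39 SE). HEY1, a Notch target of the heart, was called higher (3.81 ± 0.85 SE), by 3.05 to 5.90 in 5 pairs, but went from 61.8 to 51.1 CPM in H9 low. Of 15 Notch genes tested, 1 was called higher and 2 lower. Of 12 retinoic acid genes, 2 were called in each direction: RARB, a receptor that retinoic acid induces, rose from a median of 2.79 to 59.3 CPM (3.46 ± 0.62 SE), and ALDH1A3, a synthesising enzyme, fell in all 6 (-2.82 ± 0.52 SE). TBX6, the T-box factor of paraxial mesoderm, fell in all 6 (-2.41 ± 0.38 SE), and 1 of 12 paraxial genes was called higher and 2 lower. With H9 low left out, 4 of the paraxial genes were called higher and 3 lower.

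Lists for other cells that a culture could hold had 0 to 3 members called in either direction, beside 2.51% higher and 2.17% lower over all genes. Epicardial genes, with 40% called higher (2 of 5), and amnion and surface epithelium genes, with 37.5% (3 of 8), had the highest shares of these lists. With H9 low left out, 3 epicardial genes were called higher and 0 lower. In the amnion and surface epithelium list 4 were then called higher and 1 lower, and in the neuroectoderm list 1 was called in each direction. Of 9 tested endothelial and blood genes, 0 were called higher and 1 lower, and 7 others of that list, among them CDH5 and TAL1, had too few reads to be tested. Of 11 endoderm genes 1 was called higher; that call, of APOA1, was lost without H9 low (adjusted p = 0.052, edgeR). APOB, the other apolipoprotein among the leading genes, rose in all 6 (4.21 ± 0.45 SE). Of 9 smooth muscle genes 1 was called higher. Of 7 neuroectoderm genes, 1 was called higher and 2 lower; the riser was DLK1, a Notch-like membrane protein that many fetal tissues make, from a median of 5.15 to 63.4 CPM, and PAX6 and SOX1 had too few reads to be tested. Epicardial genes BNC1 and LRRN4 were called higher among 5 tested, and BNC1 rose in all 6 from a median of 0.298 to 15.7 CPM. WT1, UPK3B and MSLN of that list had too few reads to be tested. Of 8 tested amnion and surface epithelium genes, 3 were called higher (KRT8, IGFBP3 and GATA2) and 1 lower (TFAP2C). TFAP2A, TFAP2B, VTCN1, KRT7, TP63 and WNT6 of that list had too few reads to be tested. GATA2, which blood and amnion cells use, rose from at most 1.81 CPM to at least 5.88 CPM (4.30 ± 0.34 SE). IGFBP3, a carrier of insulin-like growth factors, rose in all 6. The summed epicardial level was 33.2 to 102 CPM at day 4 or 5 in 5 differentiations and 549 CPM in H9 low. On day 0 the same list had already summed to 33.2 to 48.4 CPM over the 6 differentiations. The summed endoderm level at day 4 or 5 was 112 to 383 CPM in the 5 and 32.1 CPM in H9 low. The amnion and surface epithelium list summed to 1123 to 2894 CPM at day 2 or 3 in 5 differentiations. At day 4 or 5 its sum was 2997 to 5714 CPM in the 5, and in H9 low it went from 3221 to 3281 CPM. That list includes the keratin KRT8, at 5528 and 7883 TPM in the high and low purity multi-omic wells of day 4 described below. IGFBP3 was at 29.7 and 656 TPM in the same wells. How much of the summed CPM KRT8 made up was not tested. The part of these cells in the results was not tested.

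In 4 lists edgeR called 0 genes. They were the HOX genes (7 tested), proliferation (16), hypoxia and glycolysis (19) and p53 targets (15), with medians of 0.47, -0.18, -0.30 and -0.45. At an unadjusted p under 0.05 they had 3, 3, 4 and 7 genes in that order, where all genes tested had 6328 (31.8%). DESeq2 called 3, 0, 2 and 2 of them, and 1700 of all genes. With H9 low left out, edgeR called 1 proliferation gene lower. Of 16 adhesion and EMT genes ESRP1, an epithelial splicing factor, and CDH2, N-cadherin, were called lower.

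**Figure D3:**
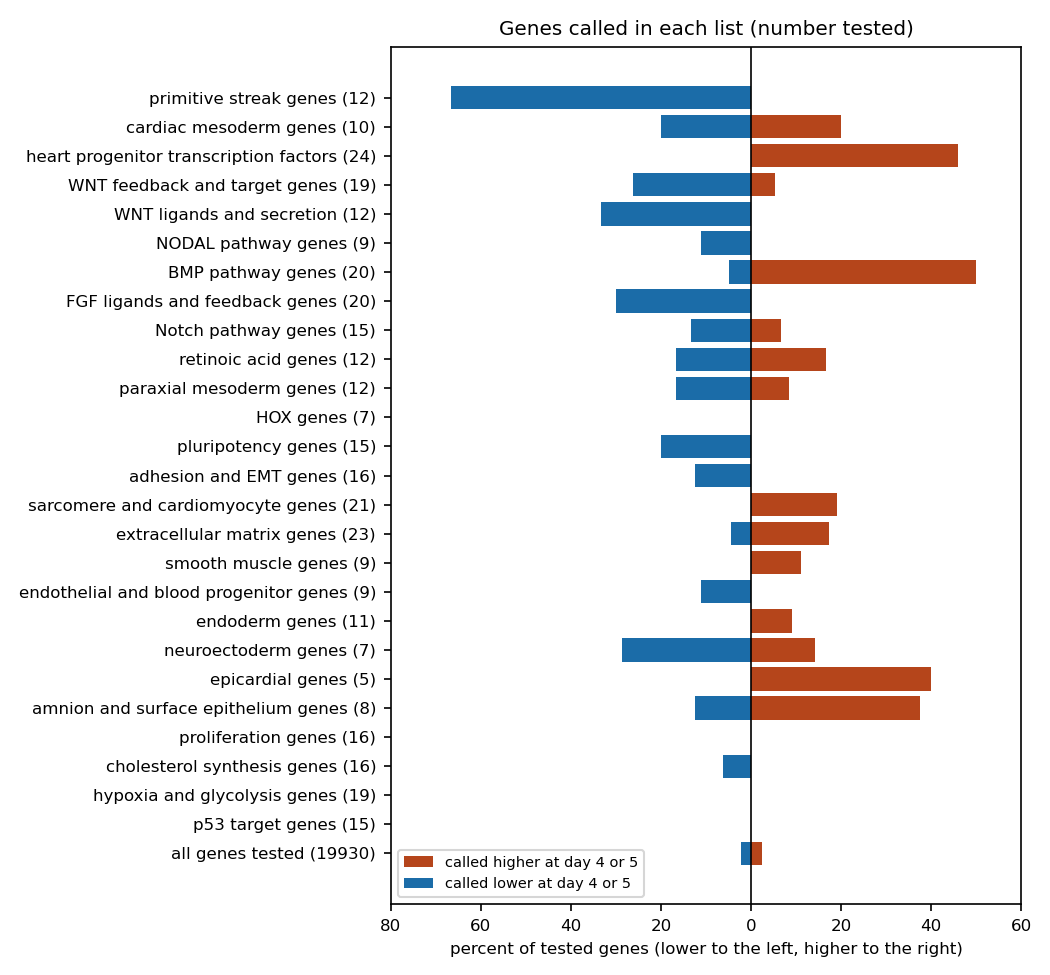
Share of the tested genes of each list that edgeR called higher (right, red) or lower (left, blue) at day 4 or 5, with the number tested in parentheses and all genes tested in the last bar. The primitive streak, WNT and FGF lists extend mostly to the left and the heart progenitor and BMP lists to the right, while all 19930 genes reach 2.17% and 2.51%.

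Whether the change depended on the later outcome was tested as the difference between the 3 high and the 3 low purity changes. No gene was called (0%), and the smallest adjusted p was close to 1 (edgeR). At an unadjusted p under 0.05 there were 520 genes (2.61%), and DESeq2 called 12. TBX5 rose by 6.27 on average in the high and by 2.81 in the low purity differentiations, and HAND2 by 8.67 and 4.96. Without H9 low the low purity means were 3.29 for TBX5 and 6.69 for HAND2. Outside H9 low both genes had few or no reads at day 2 or 3, so the size of these changes depends on the prior count. With 3 differentiations in each class these differences did not pass the test, which does not show that the classes changed alike.

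The change was also compared between the line schedules. The WTC11 change from day 2 to day 4 differed from the day 3 to day 5 change of the 4 other differentiations in 262 genes (1.31%), of which 153 (0.768%) were higher and 109 (0.547%) lower in WTC11. In 100 of these genes both WTC11 differentiations moved one way and all 4 others the opposite way, 70 of them upward in WTC11. MESP1, the factor that marks nascent cardiac mesoderm, went from 14.1 to 21.0 CPM in WTC11 high and from 6.09 to 34.1 CPM in WTC11 low. Over the same step MESP1 went from 301 to 29.7 CPM in H9 high, from 18.7 to 2.76 CPM in H9 low, from 185 to 11.5 CPM in IMR90-4 high and from 121 to 20.7 CPM in IMR90-4 low. The difference was 4.70 (adjusted p = 0.028, edgeR). In the study's multi-omic experiment, MESP1 went from 6.02 to 0.271 TPM in wells named low purity WTC11 of the same passage. The wells were of days 2 and 4. By these names, the direction of MESP1 in WTC11 low was not the same in the 2 experiments. The names could not be checked, because counts and TPM of the same name did not match in that experiment. SOX17, a factor of definitive endoderm, went from 1.56 to 56.0 CPM and from 0.719 to 58.6 CPM in WTC11 and was lower on day 5 than on day 3 in the 4 others (difference 7.67; adjusted p = 0.0094, edgeR). HAND1, a factor of first heart field and extraembryonic mesoderm, went from 4.37 to 71.2 CPM and from 1.11 to 69.0 CPM in WTC11 and was already at 68.1 to 295 CPM in the others on day 3.

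Genes of posterior and paraxial mesoderm were among those lower in WTC11. CDX1, a homeobox factor of the posterior streak, went from 186 to 0.856 CPM and from 118 to 0.472 CPM in WTC11, and started at 1.64 to 15.8 CPM in the others. MSGN1, a factor of the presomitic mesoderm, went from 262 to 0.428 CPM and from 64.1 to 0.149 CPM in WTC11, and was at 1.94 CPM or less in the others on day 3. The WNT antagonist DKK4 was at 439 and 119 CPM in WTC11 on day 2 and at 5.27 CPM or less elsewhere. Among genes that changed in all 6, 7 also differed in size between WTC11 and the other lines; DKK1 (difference -4.24) and NKD1 (difference -2.45) fell further in WTC11. Without WTC11 high 0 genes, without WTC11 low 3 genes, without IMR90-4 low 26 genes and without IMR90-4 high 75 genes passed this test, and without H9 low 1053 did.

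**Figure D4:**
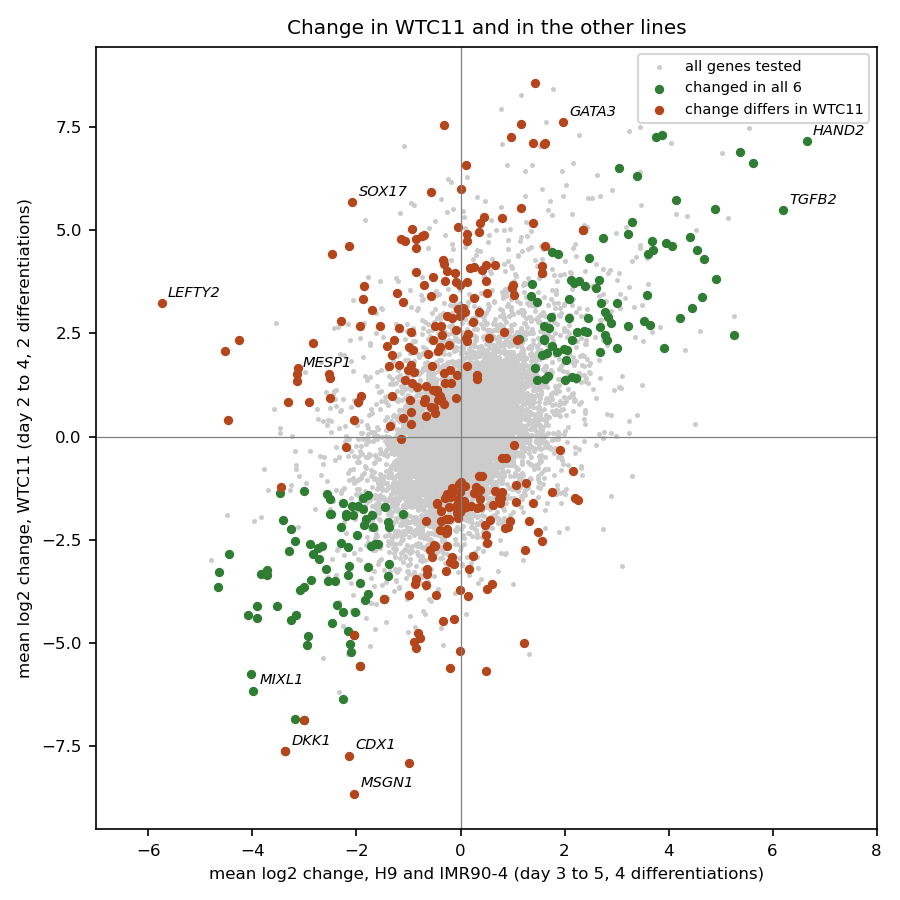
Mean log2 change of the 2 WTC11 differentiations (vertical axis) against that of the 4 H9 and IMR90-4 differentiations (horizontal axis), 1 point per gene. Green points are genes that changed in all 6 and lie in the lower left and upper right, and red points, drawn over them, are the 262 genes whose change differed in WTC11, with MESP1, SOX17 and LEFTY2 in the upper left.

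The genes that changed in all 6 were then looked up in poly(A) libraries of the study's multi-omic experiment, which did not enter the fit. It held 4 wells each of day 2 and day 4 for a high and for a low purity WTC11 differentiation, in TPM. Counts and TPM of the same name matched in 0 of the 56 columns of that experiment. The day and purity class of its wells follow the TPM names and could not be checked. Of 77 genes that rose in all 6 and reached 1 TPM, 70 (90.9%) had all 4 day 4 wells above all 4 day 2 wells in both differentiations, against 18.8% of 18889 genes. Of 82 that fell, 78 (95.1%) had the 4 later wells below in both, against 12% of all. The means lay in the same direction for all 77 and all 82. HAND2 went from 0.0958 ± 0.123 to 62.5 ± 12.7 TPM (SD, n = 4 wells) in the high and from 0 to 70.6 ± 5.60 TPM in the low purity wells. MIXL1 went from 682 ± 73.7 to 4.78 ± 1.41 TPM and from 643 ± 39.2 to 4.04 ± 0.516 TPM. TNNT2 separated these differentiations by day 4, at 15.2 ± 4.63 TPM in the high and 489 ± 27.4 TPM in the low purity wells, from 0.746 ± 0.700 and 0.870 ± 0.704 TPM. In the RNA-only WTC11 libraries of day 4 the order was the opposite, with more TNNT2 in high purity. MESP1 reached 5.62 ± 0.851 TPM from 4.07 ± 0.920 TPM in the high purity wells and dropped from 6.02 ± 1.23 to 0.271 ± 0.214 TPM in the low ones, whereas the RNA-only WTC11 low libraries went from 6.09 to 34.1 CPM. Wells share their differentiation, so the SD is the spread within it. Passage 69 is the passage of the low purity WTC11 differentiation in both experiments, and the labels do not say whether it is the same one.

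**Figure D5:**
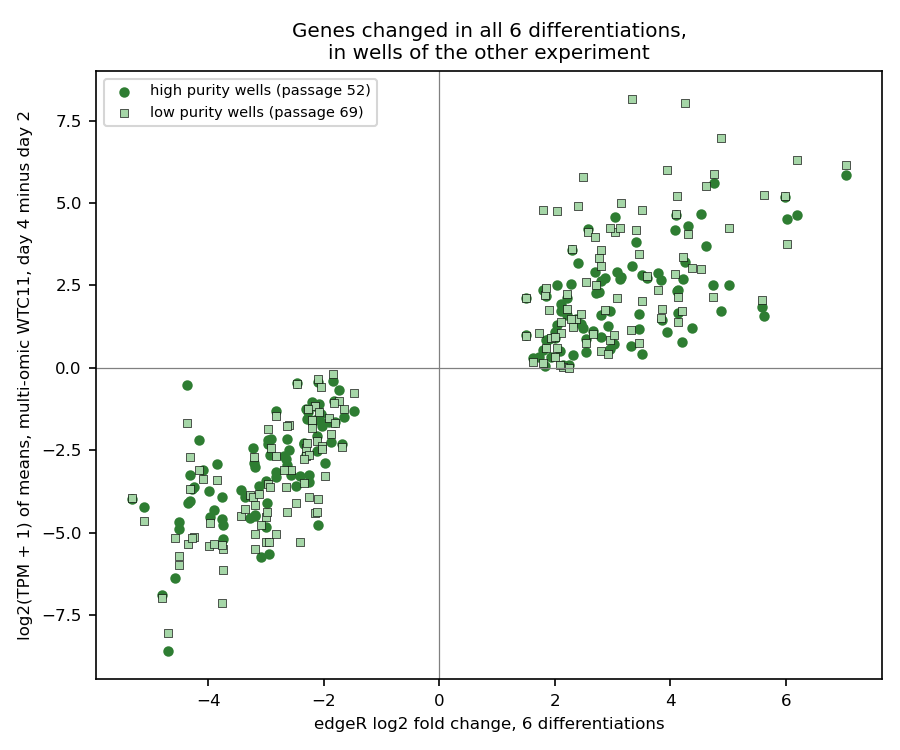
Change in the multi-omic WTC11 wells (vertical axis, log2 of mean TPM + 1 at day 4 minus day 2) against the edgeR log2 fold change of the 6 differentiations (horizontal axis) for the 165 genes that changed in all 6. Circles are high and squares low purity wells, and nearly all points lie in the lower left or upper right.

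Besides coding genes, 22 of the 82 genes that rose and 24 of the 83 that fell were noncoding or not matched to a coding entry. They included 9 antisense or divergent transcripts, such as HAND2-AS1 (5.59 ± 1.07 SE), TBX2-AS1, GATA2-AS1 and GSC-DT (-4.08 ± 0.61 SE). The kit keeps strand, but whether strand was used in counting is not given in the sources used here, so reads of these and of their partner genes may not be separable.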

How the data were processed

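The authors deposited whole-number read counts per gene and TPM. Alignment with STAR 2.5.3a to hg38 and counting with featureCounts 2.0.3 are named in the submitters' processing notes, and the annotation is not given in the sources used here. In the RNA-only count table, 36 broken lines of 6 genes were left out, leaving 43382 genes. Counts and TPM of the RNA-only libraries matched; in the multi-omic experiment 0 of 56 columns did, so only its TPM was used, under the names of that table.

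The members, lists and tests were chosen with earlier results of these data known. Counts of the 12 libraries were filtered with filterByExpr, scaled with TMM and fitted with glmQLFit and glmQLFTest of edgeR 4.0.16 (R 4.3.3), with differentiation as block and step as term, plus a step by purity or step by WTC11 term. P-values were adjusted with Benjamini-Hochberg over all genes and called under 0.05 with a log2 fold change of at least 1. Changes of single pairs are differences of log2 CPM with a prior count of 2, and levels are CPM scaled by TMM over the 24 RNA-only libraries. The pairing comes from the labels, which give 1 differentiation per line and class; deviations from the step means correlated within each pair at r of 0.28 to 0.57, although the day 2 or 3 library of IMR90-4 high correlated more with the later library of another differentiation (0.401) than with its own (0.283), and that of WTC11 high nearly as much (0.378 against 0.380). Nothing says that differentiations of 1 line were independent in time. An exact sign-flip permutation test over 6 pairs cannot go below 0.0312 (two-sided), and any gene that moves one way in all 6 has that value.

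Genes named are the 15 protein-coding genes with the largest rise and fall among those changed in all 6 with at least 5 CPM, up to 4 called members of each of 26 lists (415 genes), the 5 largest and smallest WTC11 terms, and DKK1, AXIN2, TBXT, MESP1, HAND1, GATA4 and TNNT2; other genes were named after their values were seen. DESeq2 1.42.0 was an alternative, and the scripts were tested on simulated data. Promoters were matched by symbol in RefSeq's table for 54 of 82 genes that rose and 49 of 83 that fell. Gene lengths enter no test.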

Additional observations from a re-analysis of the deposited data

Results flagged for a closer look

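Over the 6 pair changes of each of the 92 named genes, the gap of the most distant pair was set against the whole range. H9 low was far from the others in 2 genes. Its change of APOB was 1.79, against 4.14 to 5.33 in the other differentiations, and its change of ISL1 was -2.31, against 4.80 to 7.51. Chance marks about 5% of such groups, and many of the 92 genes were chosen for moving the same way in all 6 pairs, which limits how far a pair can stand apart.

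The change in WTC11 minus the change in the other lines was largest in LOC112267960 (9.94), GATA3 (9.58), LEFTY2 (9.56), LOC105370805 (9.09) and LOC105372145 (8.34). GATA3, LOC112267960 and LOC105372145 had 0 reads in both WTC11 libraries of day 2, so their values depend on the prior count and are no measure of size. LEFTY2 went from 109 to 3.36 CPM in H9 high and from 2.96 to 54.0 CPM in WTC11 high. At the other end were MSGN1 (-7.20), LOC105370467 (-7.09), DKK4 (-6.86), WNT5B (-6.26) and CDX1 (-5.59). All 10 passed edgeR's test of the difference itself, and line and schedule cannot be told apart in them.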

How the results depend on the processing

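All 92 named genes kept their direction under each alternative in which they were tested, and of the 165 genes changed in all 6, every one tested kept it too. How many passed depended on the setting. In place of 934 genes called, RLE scaling gave 950 and no filter on low counts 1228. DESeq2 called 1700, no fold change threshold 2198, a test against a log2 fold change of 1 (glmTreat) 42, all 24 RNA-only libraries 1514 and the lines without WTC11 262. Without the replicate block only 34 were called, 15 genes were changed in all 6, and 27 differed in WTC11. Leaving out 1 differentiation gave 166 (without IMR90-4 high) to 1481 (without H9 low), with 483 without H9 high, 306 without IMR90-4 low, 223 without WTC11 high and 482 without WTC11 low; with 5 pairs the test has fewer degrees of freedom.

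The 165 genes changed in all 6 became 101 (without IMR90-4 high) to 515 (without H9 low), 815 with any change in the same direction and 33 with at least 2. Still called were 164 of them with DESeq2, 96 to 161 with 1 differentiation left out, 162 with all 24 libraries and 89 of 160 tested without WTC11. The 0 genes that differed by purity became 12 with DESeq2. The 262 that differed in WTC11 became 1139 with DESeq2, 691 with no filter on low counts and 0 to 1053 with 1 differentiation left out.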
